A study of Mus musculus with 6 samples.

Results

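The 38 genes described here encode the enzymes that carry glucose carbon from glucose 6-phosphate onward in the mouse mammary gland. They comprise 14 genes of glycolysis and lactate dehydrogenase, 3 genes of the pyruvate dehydrogenase complex, the 4 pyruvate dehydrogenase kinases, pyruvate carboxylase, 11 genes of the TCA cycle and its cytosolic partner enzymes, and 5 genes of the pentose phosphate pathway. They were selected by name, by a rule that uses no measured value, although earlier results of these data were known when the set was drawn up, and all 38 were found among the 21950 genes of the deposited table. Their levels were compared between wildtype and MMTV-FOXC1 transgenic mice of the FVB/NJ strain, all at lactation day 2 and at an age of 11 weeks, to ask how the enzymes of central carbon metabolism differ in a gland in which lobuloalveolar development is impaired. The transgenic mice carried a Myc-tagged cDNA of human FOXC1, a forkhead transcription factor, behind the MMTV promoter, which depends on hormones and is active in luminal but not in basal cells. The wildtype mice carried no transgene. RNA came from slides of mammary tissue, so that stroma and fat were sequenced with the epithelium, although the labels call the source epithelial cells.

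Glycolysis splits glucose into pyruvate, which is reduced to lactate, carboxylated to oxaloacetate or oxidised to acetyl-CoA by the pyruvate dehydrogenase complex. In the lactating gland much of this acetyl-CoA is joined to oxaloacetate by citrate synthase, and the citrate leaves the mitochondrion and is cleaved in the cytosol to feed the synthesis of milk fatty acids. The oxidative branch of the pentose phosphate pathway and cytosolic malic enzyme supply the NADPH that this synthesis consumes, and the rest of the TCA cycle oxidises acetyl-CoA for energy.

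Expression was given by the authors as RPKM, that is, reads corrected for the length of the exons and for the size of the library. RPKM values of a gene rise in steps of a read, and the reads behind each value were recovered from these steps. The depth was 3492861 to 3496335 reads in the wildtype columns and 11770867 to 11775866 reads in the transgenic columns. Within a genotype the 3 columns were apart by little more than the noise of sampling, with a chi-square per degree of freedom of 1.02 in wildtype mice (5835 genes) and 1.05 in transgenic mice (7490 genes), and of 0.750 and 1.20 over the 38 enzymes. They were therefore counted as 1 sample, so that n = 1 for each genotype, no p value is given, and every interval covers counting error only. Whether the samples came from separate animals is not given in the sources used here. Transcripts of 24 milk genes made up 44.6% of reads in wildtype but 0.496% in transgenic mice. Mouse Foxc1 stood at 1.66 to 2.90 RPKM in wildtype against 8.21 to 9.56 RPKM in transgenic mice, and reads of the human cDNA were not separated from it. Of the markers of the epithelium, 16 of 16 luminal and 10 of 10 basal ones reached a mean of 2 RPKM in 1 of the genotypes or both. In wildtype mice Krt7, Elf3, Cldn4, Foxa1, Pgr and the basal marker Trp63 stood below 2 RPKM, with 0.105 RPKM for Cldn4 and 0.120 RPKM for Foxa1.

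A change is the log2 of transgenic over wildtype RPKM, with 1 added to each, and is positive where the transgenic value was higher. The only criterion was size, a change past 2 on this scale (4-fold), and it was applied to the 13118 genes whose mean reached 2 RPKM in wildtype or transgenic mice. All 38 enzymes passed that minimum. The median change of the 13118 genes was 1.06, and median-of-ratios size factors, which lowered transgenic against wildtype values by 1.24 on the log2 scale, brought this median to 0.036. A relative change is one taken after this scaling. For 4746 genes the scalings gave opposite signs.

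Most enzymes of the TCA cycle and several of the upper glycolytic steps were at higher RPKM in transgenic mice, as were most genes of the table, while the 3 pyruvate dehydrogenase genes, citrate synthase, pyruvate carboxylase and the NADPH-producing pentose phosphate enzymes were lower on both scales. Also lower on both scales were Aldoc, Pdk1, Tkt, Mdh1, Pfkl, Pkm, Pgam1 and Pgk1, although the columns of Pgam1 and Pgk1 overlapped. In all, 15 of 38 enzymes had a negative change, beside 12.3% of all 13118 genes. Of the 11 TCA cycle genes 2 had a negative change, and 4 a negative relative change (36.4%), beside 48.5% of all genes. On the library-size scale 4 of 38 enzymes were higher past the threshold, namely Idh1, Pdk4, Ldhb and Pfkp, beside 16.1% of all 13118 genes. Aldoc was the 1 enzyme lower past the threshold, beside 1.23% of all genes. On the relative scale 0 enzymes were higher past the threshold, beside 4.17% of all genes, and 4 were lower, beside 3.66%. These 4 were Aldoc, Pdhb, G6pdx and Pgd. With the library size taken without the milk genes 0 were higher (6.27% of all genes) and 2 lower (2.53%), Aldoc and Pdhb. The median change of the 38 enzymes was 0.46 with library-size scaling, against 1.06 for all genes, and -0.75 on the relative scale, against 0.036. The transgenic columns lay above every wildtype column for 22 of 38 enzymes (57.9%), beside 83.6% of all genes, and below every wildtype column for 13 enzymes (34.2%), beside 9.67% of all genes. For Pgk1, Pgam1 and Suclg2 the columns of the genotypes overlapped. The relative change was negative for 23 of 38 enzymes (60.5%), beside 48.5% of all genes. In reads, the 38 enzymes took 0.382% of the wildtype total (95% Wilson interval 0.378% to 0.386%) and 0.451% of the transgenic total (0.449% to 0.453%), and outside the milk genes 0.690% and 0.453%.

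**Figure D1:**
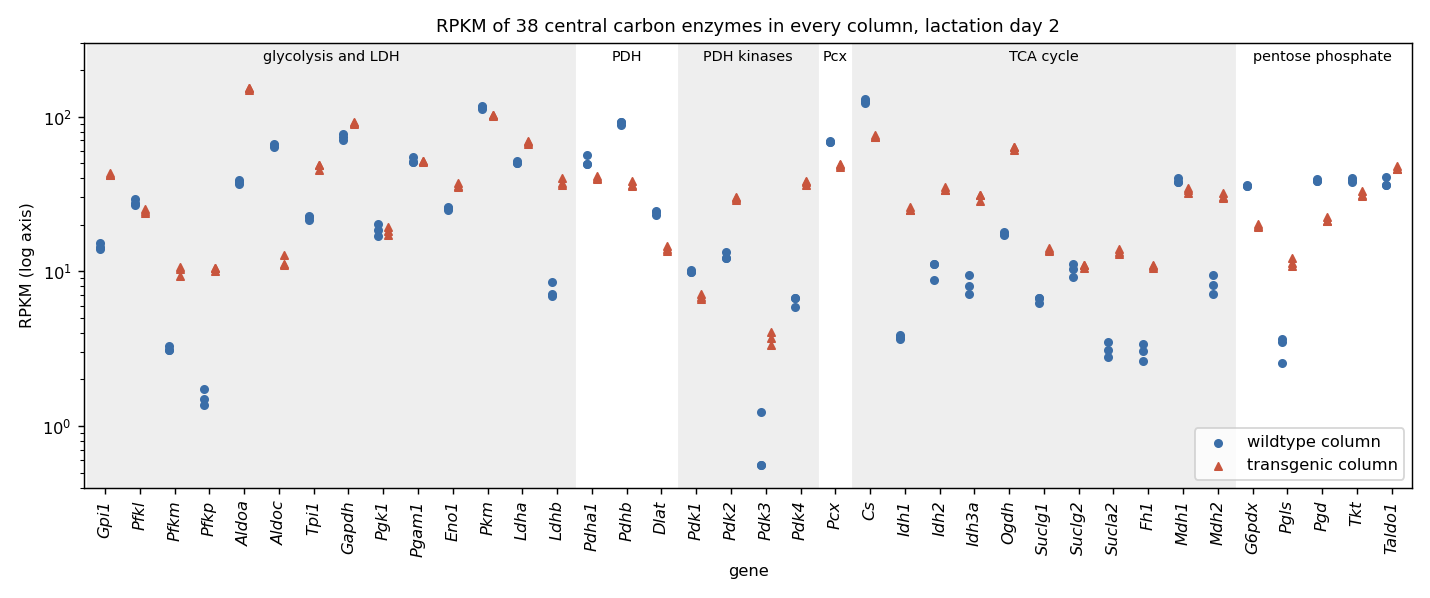
RPKM (log axis) of the 38 enzymes in each of the 3 wildtype columns (circles) and 3 transgenic columns (triangles), grouped by pathway. Transgenic Aldoc lay at 11.0 to 12.7 RPKM, far below its wildtype columns, whereas Idh1, Ldhb, Pdk4 and Pfkp lay far above theirs.

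Fewer cells of a type and less RNA per cell cannot be told apart in such tissue, and markers of several cell types differed between the genotypes. Each count of markers stands beside the shares of all 13118 genes past the threshold. These were 16.1% higher and 1.23% lower with library-size scaling, and 4.17% higher and 3.66% lower on the relative scale. The summed level of 12 white adipocyte markers was 413 to 423 RPKM in wildtype against 2548 to 2568 RPKM in transgenic mice, with 11 of 12 higher past the threshold (7 of 12 on the relative scale). The most abundant of them was Cfd in transgenic mice, at 907 RPKM, and Lpl in wildtype mice, at 262 RPKM. Among the 16 luminal markers the threshold was passed upward by 7 and downward by 1 (by 2 and 1 on the relative scale), and among the 10 basal markers by 1 and 0 (0 and 0). Of 8 fibroblast markers, 7 were higher past the threshold (5 on the relative scale), and their sum was 69.9 to 73.1 RPKM in wildtype against 1210.4 to 1213 RPKM in transgenic mice. Of the kept markers, 7 of 8 of B cells, 7 of 10 of T cells and 8 of 10 of macrophages were higher past the threshold, and 6, 7 and 4 on the relative scale. Of 7 kept brown adipocyte markers 3 were higher past the threshold on both scales, among them Ucp1 (0.058 RPKM in wildtype against 82.0 in transgenic mice), and Cidea was lower on both (297 and 42.0 RPKM). The skeletal muscle genes Ckm, Myh1 and Myh4 had 0 reads in wildtype mice and 2, 26 and 189 reads in transgenic mice. Of 5 kept muscle markers 4 had a positive change, but 0 were higher past the threshold on either scale. On the relative scale 1 was lower past it. The summed level of all 15 muscle markers was 75.1 to 82.6 RPKM in wildtype against 35.6 to 36.9 RPKM in transgenic mice. The part of these other cells in the levels of the enzymes was not tested.

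Of all 38 enzymes, the widest relative change in either direction was that of Aldoc, the aldolase isozyme best known from brain, which cleaves fructose 1,6-bisphosphate. Its 250 bases before the most upstream start that RefSeq gives (GRCm38.p6, chr11:78322823-78323072, plus strand) are shown, since it was the only enzyme past the threshold downward on both scales.
Aldoc: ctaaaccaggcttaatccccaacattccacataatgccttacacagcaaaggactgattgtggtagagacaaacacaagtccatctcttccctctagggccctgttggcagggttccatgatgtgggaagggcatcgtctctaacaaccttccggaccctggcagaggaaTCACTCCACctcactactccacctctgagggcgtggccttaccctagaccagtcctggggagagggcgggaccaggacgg
The capitals mark a match to the sterol response element TCACNCCAC, 80 to 72 bases before this RefSeq start. The start of the gene in the annotation used below, 78322968, lies within the window, so the match falls inside the annotated gene. A second window of Aldoc, described below, holds no such match. The windows of Pdhb and Pdk4 below also reach into the annotated genes. Both strands were searched. Of 32851 RefSeq promoter windows of this length, 346 (1.05%) hold such a match, and of 57 windows of 37 enzymes, some of which overlap, 2 do, those of Aldoc and Pkm. A match describes the letters and is no evidence of binding.

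Aldoc (chromosome 11, 78322968 to 78327781, GRCm38) had 65.6, 63.1 and 66.5 RPKM in the wildtype columns and 12.7, 11.1 and 11.0 RPKM in the transgenic columns. All transgenic columns lay far below all wildtype columns, 5.60-fold on average. The change was -2.39 and the relative change -3.56, and the 95% Clopper-Pearson counting interval of the log2 ratio of RPKM, without pseudocount, was -2.58 to -2.39. Only 0.884% of the 13118 genes had a lower change. Aldoa, the isozyme found in most tissues and the main one of muscle, had 39.0, 37.5 and 36.5 RPKM in wildtype against 153, 152 and 149 RPKM in transgenic mice. It was thus 4.02-fold higher, a change of 1.98 that stayed just inside the threshold and of 0.76 on the relative scale. Aldoa ranked 13 among the 38 enzymes in wildtype mice and 1 in transgenic mice, and Aldoc went from rank 6 to rank 31.

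The isozymes of aldolase therefore exchanged places. Aldoc made up 63.3% of the summed aldolase RPKM in wildtype mice (62.7% to 64.6% over the columns) and 7.13% in transgenic mice (6.81% to 7.64%). A ratio of genes within a library does not depend on the scaling, and the ratio of Aldoc to Aldoa went from 1.73 to 0.0767, a log2 change of -4.49 (95% exact conditional counting interval -4.63 to -4.36). This was the widest change of any of the 17 ratios computed. The 3 of these ratios that have Ogdh or Mdh2 below Cs or Pdhb were chosen after their values were seen. The summed aldolase level was 103 RPKM in wildtype against 163 RPKM in transgenic mice, a change of 0.66 and of -0.56 on the relative scale.

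Phosphofructokinase commits sugar to glycolysis, and its 3 isozyme genes also differed in direction. Pfkl, the liver-type gene and the main one here, had 27.5, 26.9 and 29.2 RPKM in wildtype against 23.7, 25.3 and 24.4 RPKM in transgenic mice. These columns lay close together without overlapping, with a change of -0.18 and a relative change of -1.37. Pfkm, the muscle-type gene, had 3.10, 3.29 and 3.10 RPKM in wildtype against 10.7, 9.34 and 10.3 RPKM in transgenic mice. Its change was 1.42 and its relative change 0.38, and 10.7% of its exonic length overlaps Gm26513. Pfkp, the platelet-type gene (chromosome 13, 6579768 to 6648777), had 1.74, 1.49 and 1.37 RPKM in wildtype against 10.5, 10.5 and 9.98 RPKM in transgenic mice. It was the most changed of the isozymes, 6.73-fold higher, with a change of 2.16 (interval of the log2 ratio 2.52 to 2.996) and a relative change of 1.20, which is inside the threshold. The ratio of Pfkp to Pfkl went from 0.0550 to 0.422, a log2 change of 2.94 (2.68 to 3.20), and that of Pfkm to Pfkl from 0.113 to 0.413, a log2 change of 1.86 (1.55 to 2.19). Pfkl thereby held 85.6% of the summed level in wildtype and 54.5% in transgenic mice, and the sum itself went from 32.6 to 44.9 RPKM, a change of 0.45 that was -0.75 on the relative scale.

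The lower steps of glycolysis, from the triose phosphates to pyruvate, varied less. Gapdh, glyceraldehyde-3-phosphate dehydrogenase, had 73.6 RPKM in wildtype against 91.3 RPKM in transgenic mice, and Eno1, enolase, 25.5 and 36.0 RPKM. Their changes were 0.31 and 0.48, and both turned negative on the relative scale, at -0.91 and -0.71. Pgk1, phosphoglycerate kinase, and Pgam1, phosphoglycerate mutase, did not differ detectably in RPKM at this depth. Pgk1 stood at 18.5 and 18.2 RPKM and Pgam1 at 52.2 and 51.1 RPKM, with log2 ratio intervals of -0.18 to 0.14 and -0.13 to 0.08. Their relative changes were -1.19 and -1.24. Pkm, the pyruvate kinase of tissues other than liver and red cells, was the second enzyme by level in both genotypes, at 114 and 102 RPKM, with a change of -0.17 (-1.39 relative), and 15.3% of its exonic length overlaps Gm49759. Upstream of them, Gpi1, glucose-6-phosphate isomerase, and Tpi1, triose phosphate isomerase, were higher, at 14.6 and 42.3 RPKM and at 22.2 and 47.5 RPKM. The relative change was 0.29 for Gpi1, 11.5% of whose exonic length overlaps Gm26762, and -0.14 for Tpi1. Over the 14 genes of glycolysis and lactate dehydrogenase the relative change was positive for 5 and negative for 9, with a median of -0.75.

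Copies of some of these genes could share reads with them. The annotation names 2 pseudogenes or related sequences each for Aldoa, Gapdh, Pgam1 and Ldha and 3 for Pgk1. Eno1b, a near copy of Eno1, had 37.5 RPKM in wildtype against 57.6 RPKM in transgenic mice, a level above that of Eno1 itself. Aldoart2, a copy of Aldoa, had 11.7 RPKM (204 reads) in wildtype and 0.171 RPKM (10 reads) in transgenic mice. The levels of Eno1 and Aldoa are therefore uncertain by the reads that the authors' counting may have assigned to these copies.

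Lactate dehydrogenase interconverts pyruvate and lactate. The promoter windows of Ldhb and, below, of Pdk4 are printed as those of enzymes that were higher past the threshold (250 bases before the RefSeq start, minus strand, chr6:142507958-142508207 and chr6:5496279-5496528).
Ldhb: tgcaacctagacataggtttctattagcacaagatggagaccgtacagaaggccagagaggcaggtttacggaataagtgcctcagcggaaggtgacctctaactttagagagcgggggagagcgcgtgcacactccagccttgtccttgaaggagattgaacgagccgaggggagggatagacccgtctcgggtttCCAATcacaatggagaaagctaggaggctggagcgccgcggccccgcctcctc
Pdk4: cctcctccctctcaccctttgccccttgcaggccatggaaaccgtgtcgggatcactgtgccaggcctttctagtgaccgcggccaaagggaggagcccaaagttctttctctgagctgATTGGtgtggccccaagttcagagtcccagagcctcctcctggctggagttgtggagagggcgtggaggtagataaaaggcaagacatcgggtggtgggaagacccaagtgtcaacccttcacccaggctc
The capitals mark the CCAAT box or its reverse complement ATTGG, which 11120 of 32851 windows (33.8%) and 25 of 57 windows of the enzymes (43.9%) hold. The E-box CACGTG, the hypoxia response core ACGTG, which lies within it, the STAT site TTCNNNGAA, the forkhead site GTAAACA and the sterol element were not in either of these windows. The forkhead site was in 1 of the 57 windows, a second window of Aldoc, and in 3.17% of all windows, and the E-box in 7 of the 57 (12.3%) and 6.02%. This second window of Aldoc also holds STAT sites, 124 to 116 and 83 to 75 bases before its start. The STAT site was in 2 of the 57 windows (3.51%) and in 7.02% of all windows.

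Ldhb, the subunit that prevails in heart (chromosome 6, 142490249 to 142507957), had 6.93, 8.56 and 7.11 RPKM in wildtype against 36.3, 37.3 and 39.9 RPKM in transgenic mice. Every transgenic column lay above every wildtype column, 5.02-fold on average, with a change of 2.19 (interval of the log2 ratio 2.07 to 2.60) and a relative change of 1.03. Ldha, the subunit that prevails in muscle and in tissues that release lactate, had 50.3, 51.3 and 49.7 RPKM in wildtype against 69.6, 68.3 and 66.9 RPKM in transgenic mice. Its change of 0.43 was smaller and became -0.79 on the relative scale. The ratio of Ldhb to Ldha went from 0.149 to 0.555, a log2 change of 1.89 (1.62 to 2.18), and the share of Ldhb in the summed level from 13.0% to 35.7%. Ldha remained the main subunit gene in both genotypes.

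**Figure D2:**
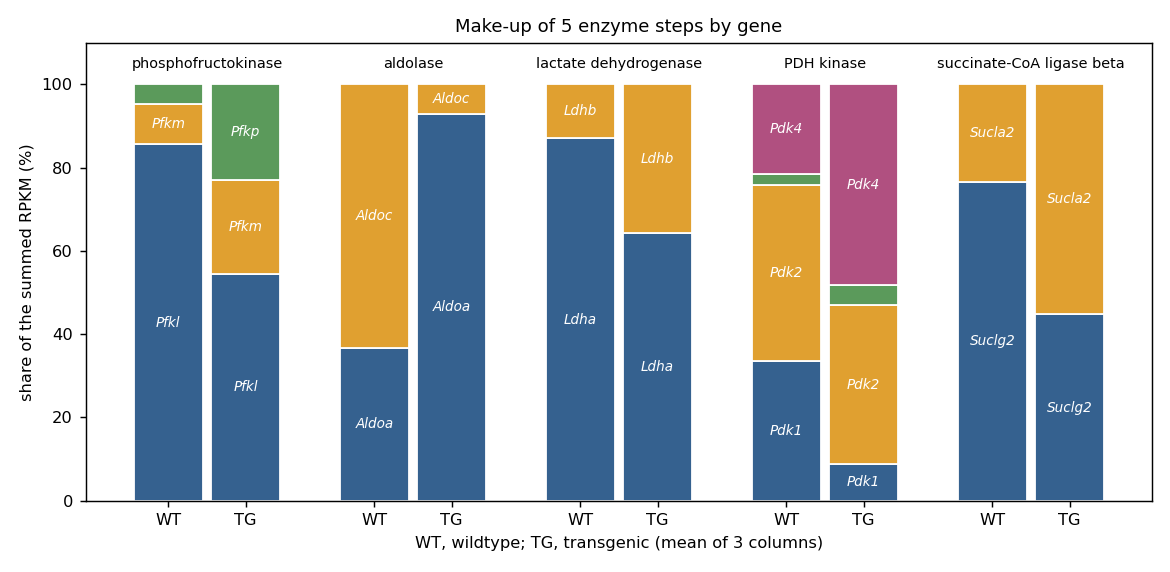
Share of each gene (%) in the summed RPKM of its enzyme step, from the mean of the 3 columns of wildtype (WT) and transgenic (TG) mice. The unlabelled green segments are Pfkp in wildtype mice (4.71%) and Pdk3 (2.62% in wildtype and 4.76% in transgenic mice), and the segment of Aldoc shrank from 63.3% to 7.13%.

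The pyruvate dehydrogenase complex turns pyruvate into acetyl-CoA in the mitochondrion. The promoter window of Pdhb is shown because this gene was the lowest of the complex in relative change (GRCm38.p6, chr14:8172993-8173242, minus strand).
Pdhb: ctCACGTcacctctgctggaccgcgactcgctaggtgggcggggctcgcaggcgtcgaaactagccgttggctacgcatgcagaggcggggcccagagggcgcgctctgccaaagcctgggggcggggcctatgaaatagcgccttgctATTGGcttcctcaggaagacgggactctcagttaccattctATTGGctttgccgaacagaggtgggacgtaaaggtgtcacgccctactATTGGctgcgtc
The capitals mark 3 reverse CCAAT boxes, ATTGG, and the reverse hypoxia response core, CACGT, 248 bases before the start. ACGTG on either strand is in 16.6% of all windows and in 19 of the 57 windows of the enzymes (33.3%), some of which overlap.

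Pdhb, the beta subunit of the pyruvate dehydrogenase component (chromosome 14, 8165996 to 8173025), had 87.5, 92.1 and 92.2 RPKM in wildtype against 35.6, 38.4 and 36.1 RPKM in transgenic mice. It was the third enzyme by level in wildtype mice and ranked 15 in transgenic mice. The change was -1.28 (interval of the log2 ratio -1.40 to -1.20) and the relative change -2.49, past the threshold on the relative scale only. Pdha1, the alpha subunit and the target of the kinases, had 49.6, 49.3 and 56.3 RPKM in wildtype against 41.2, 40.0 and 39.5 RPKM in transgenic mice. Its columns did not overlap, with a change of -0.35 and a relative change of -1.56, and 16.1% of its exonic length overlaps Map3k15. Dlat, the acetyltransferase core of the complex, had 24.0 RPKM in wildtype against 13.99 RPKM in transgenic mice, with a change of -0.74 and a relative change of -1.90. Of the other subunits, the binding protein gene Pdhx had 9.37 and 8.28 RPKM (relative change -1.26) and the shared dehydrogenase gene Dld, which also serves the 2-oxoglutarate complex, 14.9 and 20.8 RPKM (-0.72). The sum over the 5 genes was 185 to 196 RPKM in wildtype against 119 to 121 RPKM in transgenic mice, and its relative change was -1.89.

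The kinases that phosphorylate and inhibit the complex were higher with library-size scaling, with the exception of Pdk1. Pdk4, the kinase known to be induced by fasting and fatty acids (chromosome 6, 5483351 to 5496309), had 6.68, 5.87 and 6.77 RPKM in wildtype against 36.2, 37.5 and 38.6 RPKM in transgenic mice. It was 5.81-fold higher, with a change of 2.37 (interval of the log2 ratio 2.35 to 2.73) and a relative change of 1.22. Pdk2, the most widely expressed kinase, had 13.4, 12.2 and 12.2 RPKM in wildtype against 29.0, 29.6 and 30.1 RPKM in transgenic mice. Its change of 1.17 was close to the median of all genes and its relative change was 0.00. Pdk3 was the lowest of the 38 enzymes in both genotypes, at 0.559, 1.23 and 0.559 RPKM in wildtype against 3.32, 4.05 and 3.71 RPKM in transgenic mice. With 21 reads in wildtype mice its log2 ratio is known only to 1.60 to 2.95, and its change was 1.40 (0.63 relative). Pdk1, a gene induced by low oxygen in many cells, had 9.91, 9.94 and 10.2 RPKM in wildtype against 6.79, 6.62 and 7.12 RPKM in transgenic mice, a change of -0.49 and a relative change of -1.58.

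Set against its substrate, each kinase gene but Pdk1 was higher in transgenic mice. The ratio of Pdk4 to Pdha1 went from 0.125 to 0.930, a log2 change of 2.90 (2.697 to 3.11), that of Pdk3 to Pdha1 changed by 2.60 (1.9599 to 3.32) and that of Pdk2 to Pdha1 by 1.59 (1.42 to 1.76). The ratio of Pdk1 to Pdha1 changed by -0.19 (-0.33 to -0.04). Pdk4 made up 21.6% of the summed kinase RPKM in wildtype against 48.3% in transgenic mice, and Pdk1 33.6% and 8.83%. Pdk2 was the main kinase gene in wildtype mice and Pdk4 in transgenic mice, while the summed level went from 29.8 to 77.5 RPKM, a change of 1.35 (0.14 relative).

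**Figure D3:**
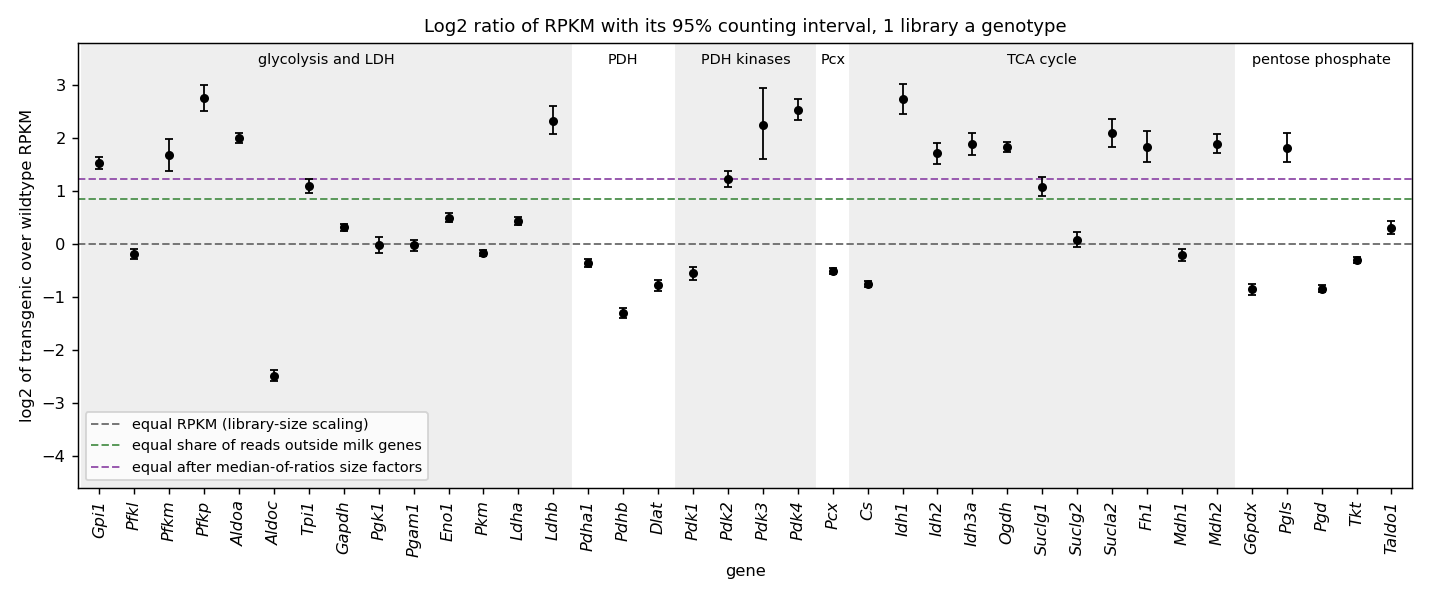
Log2 of transgenic over wildtype RPKM, without pseudocount, for the 38 enzymes with 95% counting intervals (bars), 1 library a genotype. The dashed lines mark equal RPKM (0), equal shares of the reads outside milk genes (0.85) and equality after size factors (1.24), and the pyruvate dehydrogenase genes, Pcx, Cs, G6pdx and Pgd are among the genes below all of them.

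Pcx, pyruvate carboxylase, makes oxaloacetate from pyruvate and so replenishes the TCA cycle. It had 68.8, 68.0 and 69.7 RPKM in wildtype against 49.1, 47.4 and 48.9 RPKM in transgenic mice, a change of -0.50 and a relative change of -1.71. It was thus lower together with Pdha1, and the ratio of the pair hardly differed, at 1.33 and 1.21 (log2 change -0.14, interval -0.24 to -0.05). Cs, citrate synthase, condenses the products of both enzymes and had the highest level of all 38 genes in wildtype mice, with 122, 127 and 129 RPKM, against 75.7, 74.2 and 73.3 RPKM in transgenic mice. The columns were far apart, with a change of -0.75 (interval of the log2 ratio -0.82 to -0.70) and a relative change of -1.97, just inside the threshold.

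Beyond citrate the direction changed. Ogdh, the dehydrogenase of the 2-oxoglutarate complex, had 17.2, 17.4 and 18.0 RPKM in wildtype against 61.2, 63.6 and 63.1 RPKM in transgenic mice. It was 3.57-fold higher, with a change of 1.78 and a relative change of 0.58. Mdh2, the mitochondrial malate dehydrogenase, had 7.14, 8.15 and 9.50 RPKM in wildtype against 30.3, 29.8 and 32.2 RPKM in transgenic mice, with a change of 1.78 (0.62 relative). Idh3a, the catalytic subunit of the NAD-dependent isocitrate dehydrogenase, had 8.18 and 30.3 RPKM and Fh1, fumarase, 3.01 and 10.8 RPKM, with changes of 1.77 and 1.55 and relative changes of 0.61 and 0.51. All of these stayed inside the threshold on both scales. The ratio of Cs to Ogdh went from 7.18 to 1.19, a log2 change of -2.60 (-2.71 to -2.49), and that of Cs to Mdh2 from 15.3 to 2.42, a log2 change of -2.66 (-2.84 to -2.48). Pdhb to Ogdh went from 5.16 to 0.586, a log2 change of -3.14 (-3.28 to -3.00).

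Succinate-CoA ligase joins the alpha subunit Suclg1 to a beta subunit that sets the nucleotide used, Suclg2 for GTP and Sucla2 for ATP. Suclg1 had 6.55 RPKM in wildtype against 13.8 RPKM in transgenic mice, with a change of 0.98 and a relative change of -0.14. Suclg2 had 10.4, 11.1 and 9.23 RPKM in wildtype against 10.5, 11.0 and 11.0 RPKM in transgenic mice, and these columns overlapped (interval of the log2 ratio -0.06 to 0.23). Sucla2 had 3.52, 3.08 and 2.80 RPKM in wildtype against 12.9, 13.3 and 13.9 RPKM in transgenic mice, a change of 1.80 (0.74 relative). The main beta subunit gene therefore differed between the genotypes, with Sucla2 at 23.4% of the summed beta level in wildtype and 55.2% in transgenic mice, and the ratio of Suclg2 to Sucla2 changed by -2.01 on the log2 scale (-2.32 to -1.71).

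The cytosolic and mitochondrial forms of the dehydrogenases differed as well. Mdh1, the cytosolic malate dehydrogenase, had 40.3, 37.9 and 37.6 RPKM in wildtype against 33.4, 32.3 and 34.4 RPKM in transgenic mice, a change of -0.20 and a relative change of -1.40. Since Mdh2 was higher, the ratio of Mdh1 to Mdh2 went from 4.67 to 1.09, a log2 change of -2.11 (-2.31 to -1.90). Idh1, the cytosolic NADP-dependent isocitrate dehydrogenase (chromosome 1, 65158616 to 65186500), had 3.77, 3.67 and 3.88 RPKM in wildtype against 24.9, 24.7 and 25.9 RPKM in transgenic mice. This was the highest change of the 38 enzymes, 2.45, at 6.67-fold (interval of the log2 ratio 2.46 to 3.03), and the relative change was 1.36. Idh2, its mitochondrial counterpart, had 8.78, 11.2 and 11.2 RPKM in wildtype against 33.6, 35.0 and 33.6 RPKM in transgenic mice, with a change of 1.62 (0.45 relative). Both genes were higher, and the ratio of Idh1 to Idh2 went from 0.363 to 0.739, a log2 change of 1.02 (0.68 to 1.38).

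The pentose phosphate pathway begins with G6pdx, glucose-6-phosphate dehydrogenase (chromosome X, 74409483 to 74429194), which had 36.0, 35.6 and 35.8 RPKM in wildtype against 20.3, 19.3 and 19.7 RPKM in transgenic mice. Its change was -0.83 (interval of the log2 ratio -0.96 to -0.75) and its relative change -2.01, just past the threshold, and 13.6% of its exonic length overlaps Ikbkg. Pgd, phosphogluconate dehydrogenase, the other NADPH-producing step (chromosome 4, 149149991 to 149166771), had 39.4, 38.4 and 38.4 RPKM in wildtype against 22.4, 21.1 and 21.2 RPKM in transgenic mice. These values gave nearly the same change as for G6pdx, -0.82 (-0.92 to -0.78), and a relative change of -2.01. Pgls, the lactonase between them, had 3.24 RPKM in wildtype against 11.4 RPKM in transgenic mice, a change of 1.55 (0.50 relative), with 20.6% of its exonic length overlapping Fam129c. Without transgenic column 2 the relative changes of G6pdx and Pgd were -2.00 and -1.99, no longer past the threshold. The 3 oxidative enzymes thus did not move together, and their sum was 76.7 to 79.0 RPKM in wildtype against 51.7 to 53.4 RPKM in transgenic mice, a change of -0.55 (-1.77 relative).

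The non-oxidative branch returns pentoses to glycolysis. Tkt, transketolase, had 39.1, 40.0 and 37.6 RPKM in wildtype against 30.5, 32.8 and 31.3 RPKM in transgenic mice, and Taldo1, transaldolase, 36.2, 40.7 and 35.9 RPKM and 48.1, 46.0 and 45.5 RPKM. The former was lower and the latter higher with library-size scaling (-0.29 and 0.30), and both were lower on the relative scale (-1.49 and -0.91). The ratio of Taldo1 to Tkt went from 0.967 to 1.48, a log2 change of 0.61 (0.48 to 0.74), and that of G6pdx to Pfkl, the first committed genes of the pathway and of glycolysis, from 1.28 to 0.807, a log2 change of -0.67 (-0.81 to -0.53).

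The neighbouring genes of the same routes were taken from a list of 67, of which 54 passed the minimum of 2 RPKM. With library-size scaling 9 were higher past the threshold (beside 16.1% of all genes) and 2 lower (1.23%), whereas relative changes put 4 above (4.17%) and 8 below it (3.66%). Those lower on both scales were Slc25a1, the citrate carrier, at 327 and 61.0 RPKM (relative change -3.62), and Acly, ATP citrate lyase, at 445 and 56.4 RPKM (-4.18). On the relative scale Mpc1 and Mpc2, the subunits of the mitochondrial pyruvate carrier, were also lower past the threshold, at -3.12 and -2.38, as was Me1, cytosolic malic enzyme, at -2.94. The remaining 3 were the lactate and pyruvate transporter Slc16a1 (-2.56), the aminotransferase Got1 (-2.87) and the glucose transporter Slc2a1 (-2.46). These 6, past the threshold on the relative scale alone, were named after their values were seen. The pyruvate carrier, Pdhb, Cs, Slc25a1 and Acly, which lie in this order between cytosolic pyruvate and cytosolic acetyl-CoA, were thus all at lower RPKM in transgenic mice.

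**Figure D4:**
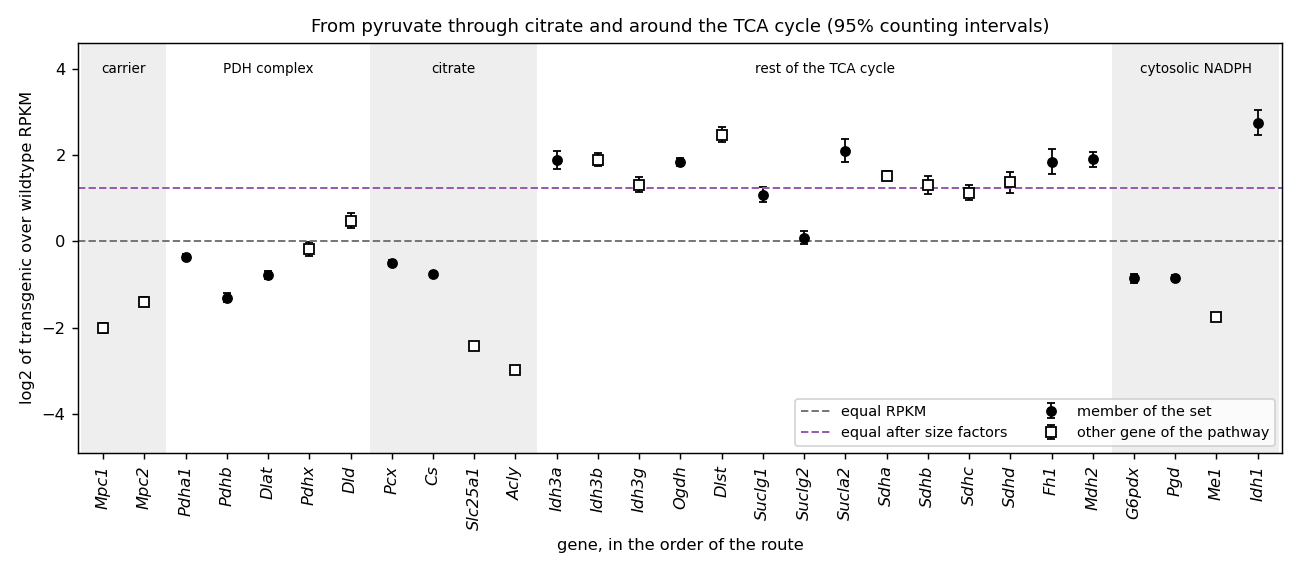
Log2 of transgenic over wildtype RPKM with 95% counting intervals for genes in the order of the route from the pyruvate carrier through citrate, around the TCA cycle and to cytosolic NADPH (filled, the enzymes described; open, other genes of the routes). The genes up to Acly lie at or below the line of equal RPKM except Dld, the genes from Idh3a to Mdh2 lie above it, with the interval of Suclg2 including it, and the upper dashed line marks equality after size factors (1.24).

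Higher past the threshold on both scales were Pfkfb3, which makes the activator of phosphofructokinase (4.06 and 60.3 RPKM, relative change 2.48), and Pck1, cytosolic phosphoenolpyruvate carboxykinase (4.34 and 144 RPKM, 3.63). The same held for H6pd, the hexose-6-phosphate dehydrogenase of the endoplasmic reticulum (2.11 and 35.8 RPKM, 2.52), and Me2, mitochondrial malic enzyme (0.350 and 11.8 RPKM, 2.50). The wildtype level of Me2 rests on 9 reads, and its log2 ratio is known only to 4.14 to 6.21. H6pd and Me2 thus differed in direction from G6pdx and Me1, which catalyse related reactions in the cytosol. The genes related to Pfkfb3 did not share 1 direction. Pfkfb2 was lower, at 12.1 and 7.52 RPKM (relative change -1.73). Pfkfb1 (0.665 and 6.24 RPKM) and Pfkfb4 (0.246 and 3.78 RPKM) were higher, from 28 and 12 wildtype reads. Of the 9 other genes of the TCA cycle list 0 had a negative change (12.3% of all genes) and 2 a negative relative change (48.5%), and Dlst, the second component of the 2-oxoglutarate complex, was past the threshold (9.62 and 53.1 RPKM, change 2.35, relative change 1.18). The succinate dehydrogenase genes Sdha to Sdhd summed to 45.3 to 48.8 RPKM in wildtype against 119 to 125 RPKM in transgenic mice, a change of 1.35 that was 0.13 on the relative scale.

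Lists of sterol response, hypoxia and proliferation genes were counted beside the enzymes. The shares of all genes past the threshold, 16.1% higher and 1.23% lower with library-size scaling and 4.17% higher and 3.66% lower on the relative scale, apply to each count. Of 12 sterol response genes, 0 were higher and 3 lower past the threshold (Sqle, Insig1 and Acaca), and relative changes put 0 above and 7 below it, their median being -2.09. Among 12 genes of the hypoxia list 0 were past the threshold with library-size scaling, and Ndrg1 alone was lower on the relative scale (-2.99). Of 11 proliferation genes 0 were past it with library-size scaling, and Mki67 alone on the relative scale, at -2.42. Of these 11 genes, 2 had a negative change (12.3% of all genes) and 6 a negative relative change (48.5%). Their median change was 0.88 and their median relative change -0.04. By staining for Ki67, the product of Mki67, the authors reported a higher percentage of positive epithelial cells in transgenic mice at lactation. Ndrg1 and Mki67 were named after their values were seen.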

How the data were processed

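Total RNA of 3 wildtype and 3 transgenic samples, taken from slides of mammary tissue, was sequenced as single reads after ribosomal RNA depletion. Reads were aligned to GRCm38 with TopHat2 (2.0.7), and the authors deposited RPKM estimated with SAMMate on Ensembl genes. The authors' mean and log2 fold change columns were not used. Depth and reads were recovered from RPKM steps, at annotated exonic length for 8699 genes and at another length for 9609, within 1e-05 of whole numbers. That other length was the smallest that gave whole reads in every column, so the reads of such a gene can be too few. Genes together hold 99.7% to 99.9% of the depth. The recovery and the intervals were tested on simulated data.

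Changes were computed in Python (3.11.15) with a pseudocount of 1 RPKM and a minimum of 2 RPKM, and size factors over 12677 genes with reads in every column. With n = 1 a genotype, only counting intervals (95%; scipy 1.17.1) are given. Enzymes past the threshold, those with the 3 largest relative changes in each direction and those in ratios were given by column, and other pathway genes where past the threshold on both scales. Outside this rule, Pdhx, Dld, Dlst, Pfkfb1, Pfkfb2, Pfkfb4, the sum of Sdha to Sdhd and genes past the threshold on the relative scale alone were also given. The enzymes and lists were chosen with earlier results of these data known. Promoters are from RefSeq (GRCm38.p6) and matched 37 of 38 enzymes. Pseudocounts, minimum levels, scalings, shared exons and left-out columns were varied.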

Additional observations from a re-analysis of the deposited data

How the results depend on the processing

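Under the other pseudocount, minimum levels and left-out columns, no enzyme past the threshold and no ratio changed sign. With a pseudocount of 0.1, 7 enzymes were higher past the threshold with library-size scaling, Aldoa, Pdk3 and Sucla2 being added. The median change was 0.43 with a minimum of 10 RPKM, -0.75 with median-of-ratios as with trimmed-mean factors and -0.37 with the library size without milk genes. Enzymes lower on the relative scale numbered 2 without transgenic replicate 2 and 2 with the library size without milk genes, because G6pdx and Pgd came to -2.00 and -1.99 and to -1.64 and -1.63. When each column was left out in turn, 4 to 5 enzymes were higher and 1 was lower with library-size scaling, 0 were higher and 2 to 5 were lower on the relative scale, the median was 0.44 to 0.46 and the ratio of Aldoc to Aldoa changed by -4.55 to -4.46. A pseudocount of 1 RPKM in both genes brought the change of Pfkp to Pfkl to 2.34 and of Pdk3 to Pdha1 to 1.75. No paired analysis was possible because the labels pair no wildtype sample with a transgenic one. Among the 38 enzymes, depth limits Pdk3, with 21 wildtype reads, most. Differences between animals were not measured.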

Other observations

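Copies of the enzymes outside the main list gave levels of their own. Gapdhs, the sperm form of glyceraldehyde-3-phosphate dehydrogenase, had 0.889 RPKM (15 reads) in wildtype and 7.49 RPKM (426 reads) in transgenic mice. G6pd2, a copy of G6pdx, had 1.95 RPKM (48 reads) and 0.940 RPKM (78 reads), and Aldoart1, a copy of Aldoa, 0.140 RPKM (3 reads) and 2.12 RPKM (154 reads). Pgk2 had 0 reads in both genotypes.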
